A study of Sus scrofa with 56 samples.

Results

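Chemokine receptors of circulating lymphocytes and monocytes were followed in blood of sows (Sus scrofa) through pregnancy and nursing. The list named 9 receptor genes, CCR2, CCR4, CCR6, CCR9, CCR10, CXCR3, CXCR4, CXCR6 and CX3CR1, and a gene belonged to it where its Ensembl ID in the deposited files mapped to that symbol. Of the 9, 8 were matched, out of 24358 gene IDs per file, and CCR2, the receptor of inflammatory monocytes, was not analysed here. All 8 passed the filter on low counts in the comparison of the stages, as did 12349 genes in all.

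The libraries were made from peripheral blood mononuclear cells, a mixture of lymphocytes, monocytes and dendritic cells, of multiparous sows. They came from 28 sows on day 98 of gestation (G98) and from 26 of these on day 11 of lactation (L11). There were 28 libraries at each stage. The sows lived in conventional (C) or enriched (E) housing, were of low parity (LP, gestations 2 and 3) or high parity (HP, gestation 4 or beyond), and ranked as subordinate, intermediate or dominant. Housing was even at each stage, with 14 C and 14 E libraries. Parity split into 15 LP and 13 HP libraries at G98 and 14 of each at L11. Dominant sows gave 9 libraries at G98 and 11 at L11, intermediate sows 11 and 9, and subordinate sows 8 and 8. The experiment was run as 2 replicates, R1 and R2, of 14 libraries per stage. No treatment other than housing is named in the labels, and no breed or age is given. For 26 sow and replicate pairs there was a library at each stage, and 2 sows, tagged T82133 and T82157, gave an L11 library in R1 and again in R2.

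Chemokine receptors are G protein-coupled receptors on the surface of leukocytes that read gradients of secreted chemokines and steer the cells into tissues. CXCR4 binds CXCL12 and holds cells in bone marrow, while CX3CR1 binds fractalkine on vessel walls and is carried by patrolling monocytes and cytotoxic lymphocytes. CCR9, CCR10, CCR4 and CCR6 guide lymphocytes to gut, skin and mucosa, and CXCR3 and CXCR6 guide effector T cells and natural killer cells to inflamed tissue.

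In the RefSeq annotation of Sscrofa11.1, CXCR4 lies on chromosome 15 (positions 15663652 to 15666706) and CXCR3 on chromosome X (57592032 to 57595706). CCR6 lies on chromosome 1 (2016600 to 2034172) and CCR10 on chromosome 12 (20157627 to 20159518). The remaining 4 are on chromosome 13, CCR4 at 18860596 to 18865987, CX3CR1 at 23944386 to 23957567, CCR9 at 29033609 to 29051227 and CXCR6 at 29095900 to 29100666. These are gene spans, so exons and untranslated regions are not told apart. The span of CXCR6 overlaps FYCO1, and those of CCR9 and CX3CR1 overlap the noncoding loci LOC110256224 and LOC110256576; the sources used here do not say how reads in the overlaps were counted, so these 3 levels are uncertain to that extent.

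The libraries held 18096879 to 25302990 estimated counts, so that 1 CPM, a count scaled to the size of its library, stood for 18.1 to 25.3 counts. The defining genes of T cells, monocytes and B cells were present in every library, with CD3E at 409 CPM or more, CSF1R at 360 CPM or more and CD79A at 186 CPM or more. Of the granulocyte genes, CSF3R averaged 207 CPM and LTF 13.9 CPM and were found in every library, MMP8 was at 0 in 4 of the 56, and MPO and ELANE were at 0 in 39 and 51. In a mixture of cells, fewer cells of a type and less RNA per cell cannot be told apart. The number series in the library names differs between G98 and L11, and what it stands for is not stated, so stage and that series cannot be told apart. Within each stage the numbers of R1 and R2 form separate blocks, so run and number block cannot be told apart either.

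Levels of different genes were compared per length, in the deposited TPM, an abundance scaled to gene length and to library size. CXCR4 had the highest level, 91.3 ± 64.4 TPM (SD, n = 56), and stood above the next receptor in 55 of 56 libraries. CXCR3 followed at 11.7 ± 3.13 TPM, CCR6 at 9.13 ± 4.63 TPM, CX3CR1 at 8.14 ± 6.62 TPM, CCR4 at 6.79 ± 4.11 TPM and CCR9 at 5.24 ± 2.51 TPM. Within these 5 the neighbours in the order overlapped within their SD, and each was above the next in 28 to 40 libraries, apart from CCR9, which was above CCR10 in 55. CCR10 reached 1.43 ± 0.547 TPM and CXCR6 0.562 ± 0.514 TPM, with 5 to 54 and 2 to 111 counts per library, so these 2 were measured with the least depth. The order depended on the run: the mean level of CX3CR1 in R1 at L11, 15.2 TPM, was above that of CXCR3, 10.7 TPM, whereas in R2 at L11 it was 2.01 TPM against 11.5 TPM. The files give CCR6 a length of 1131 bases and CXCR4 one of 5495 bases, and a gene model that lacks part of a transcript would shift a level per length.

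**Figure D1:**
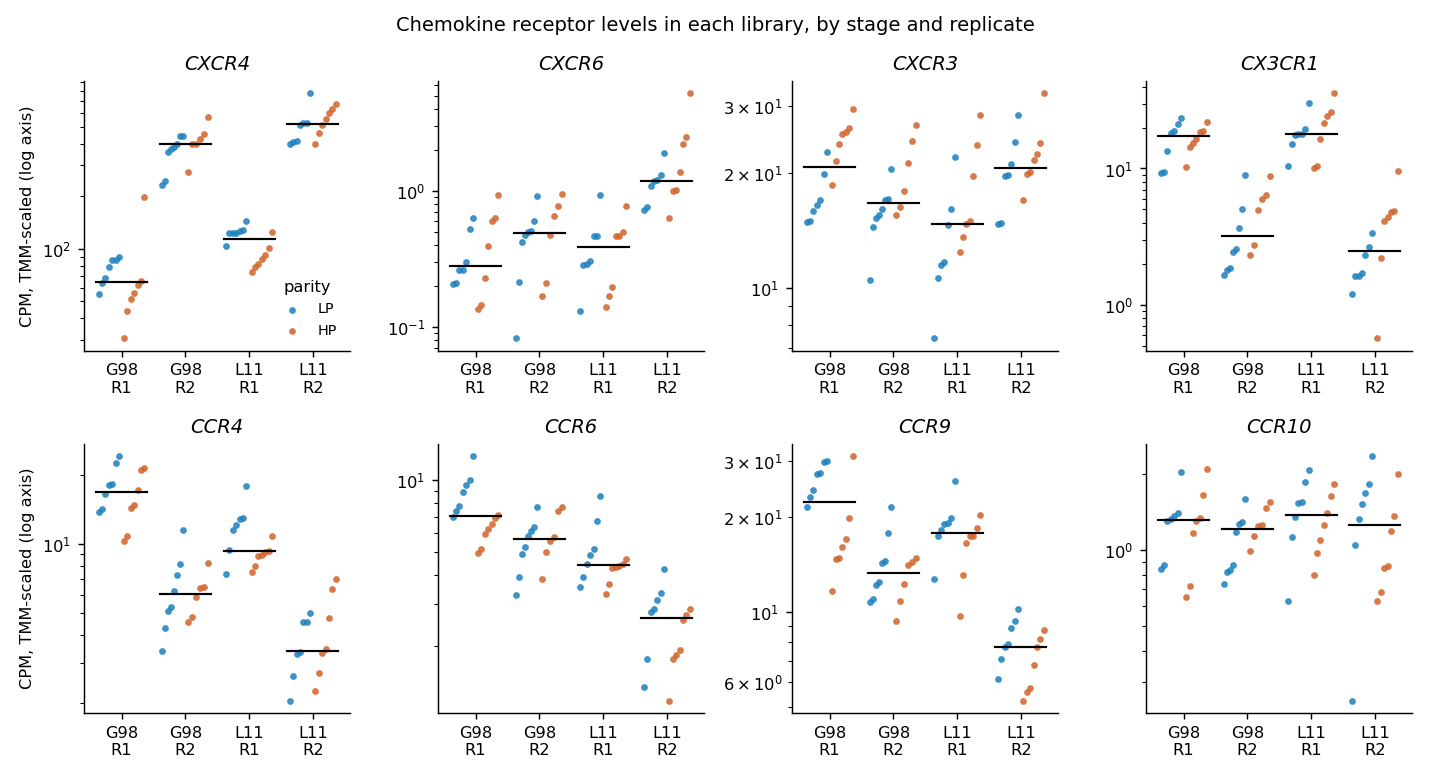
Each panel shows 1 receptor and each point 1 library, with TMM-scaled CPM on a log axis, by stage (G98, L11) and replicate (R1, R2), coloured by parity (LP, HP); the line is the median of 14 libraries. CXCR4 and CX3CR1 separate R1 from R2 without overlap at each stage, CCR6 lies lower at L11 in each replicate, and CCR10 stays between 0.253 and 2.35 CPM throughout.

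The largest differences in the receptors lay between the 2 runs of the experiment. CXCR4 was about 5 times as high in R2 as in R1, and CX3CR1 and CCR4 were lower in R2, at each stage. At G98, 5 of the 8 receptors differed between R2 and R1, 1 higher and 4 lower, beside 40.7% of all genes tested (19.3% higher and 21.3% lower). At L11, 7 of the 8 differed, 3 higher and 4 lower, beside 43.3% of all genes (22% higher and 21.3% lower). The median log2 difference of the 8 was -0.30 at G98 and -0.53 at L11, against 0.0010 and 0.015 over all genes.

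CXCR4 at G98 ran from 30.7 to 196.9 CPM in R1 (median 64.5, n = 14) and from 231 to 567 CPM in R2 (median 399, n = 14). At L11 it ran from 74.1 to 143.5 CPM in R1 (median 114) and from 396 to 777 CPM in R2 (median 519). No R1 library reached the lowest R2 library at either stage. The fitted difference was 5.31-fold at G98 (log2 2.41, SE 0.20, adjusted p = 2.3e-10) and 4.95-fold at L11 (log2 2.31, SE 0.11, adjusted p = 5.27e-15).

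CX3CR1, the fractalkine receptor, went the other way. At G98 it ran from 9.26 to 23.6 CPM in R1 (median 17.2) and from 1.65 to 8.95 CPM in R2 (median 3.19), and at L11 from 10.1 to 35.7 CPM (median 18.0) and from 0.564 to 9.60 CPM (median 2.47). Every R2 library was below every R1 library at the same stage. The level in R2 was 0.258 times that in R1 at G98 (log2 -1.95, SE 0.25, adjusted p = 3.53e-07) and 0.162 times at L11 (log2 -2.62, SE 0.27, adjusted p = 7.11e-09).

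CCR4, the receptor of CCL17 and CCL22 on Th2, regulatory and skin-homing T cells, ran from 10.3 to 24.4 CPM in R1 and from 3.40 to 11.5 CPM in R2 at G98 (medians 16.9 and 6.05). At L11 it ran from 7.36 to 17.9 CPM and from 2.04 to 7.04 CPM (medians 9.36 and 3.40). The ranges overlapped at G98 and did not at L11. R2 was lower by a log2 difference of -1.44 at G98 (SE 0.16, adjusted p = 3.27e-08) and -1.39 at L11 (SE 0.17, adjusted p = 2.17e-07). Groups that did not overlap were thus seen for CXCR4 and CX3CR1 at G98, beside 2.41% of all genes, and for CXCR4, CX3CR1 and CCR4 at L11, beside 3.86%.

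CCR9, the gut-homing receptor of CCL25, was lower in R2, with means of 22.01 ± 6.49 and 13.6 ± 3.13 CPM at G98 (SD, n = 14 each; log2 -0.70, adjusted p = 4.8e-05) and of 17.5 ± 3.86 and 7.52 ± 1.51 CPM at L11 (log2 -1.20, adjusted p = 3.44e-10). CCR6, the receptor of CCL20 on Th17 and B cells, was lower as well, by a log2 difference of -0.42 at G98 (SE 0.13, adjusted p = 0.0119) and -0.94 at L11 (SE 0.16, adjusted p = 2.28e-05). Their R1 and R2 ranges overlapped at each stage.

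CXCR6 and CXCR3, the receptors of CXCL16 and of the interferon-induced CXCL9, CXCL10 and CXCL11, passed the test at L11. CXCR6 had a median of 0.384 CPM in R1 and 1.19 CPM in R2 at L11 (log2 1.93, SE 0.32, adjusted p = 1.8e-05), and 0.282 and 0.487 CPM at G98 (adjusted p = 0.368). CXCR3 had a median of 14.7 CPM in R1 and 20.7 CPM in R2 at L11 (log2 0.46, SE 0.15, adjusted p = 0.0125), and 20.8 and 16.7 CPM at G98 (log2 -0.19, adjusted p = 0.12). The mean deposited TPM of CXCR3 at L11 was nearer between the runs, 10.7 in R1 and 11.5 in R2. CCR10, the receptor of CCL27 and CCL28 on skin-homing T cells and IgA plasma cells, gave adjusted p = 0.525 at G98 and 0.728 at L11.

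Both sows sampled at L11 in each run showed the same directions in the receptors that separated the runs. In T82133 CXCR4 was 124 CPM in R1 and 509.6 CPM in R2, and in T82157 it was 102 and 633 CPM. CX3CR1 was 35.7 and 2.19 CPM in T82133 and 21.4 and 4.83 CPM in T82157. CCR4 was 9.23 and 3.32 CPM in the first sow and 7.55 and 2.26 CPM in the second, and CCR9 was 17.4 and 8.78 CPM and 20.3 and 6.77 CPM. These are 2 animals, ranked intermediate in R1 but dominant in R2 by the labels, and were not tested on their own; without their R2 libraries the same 7 receptors differed at L11.

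**Figure D2:**
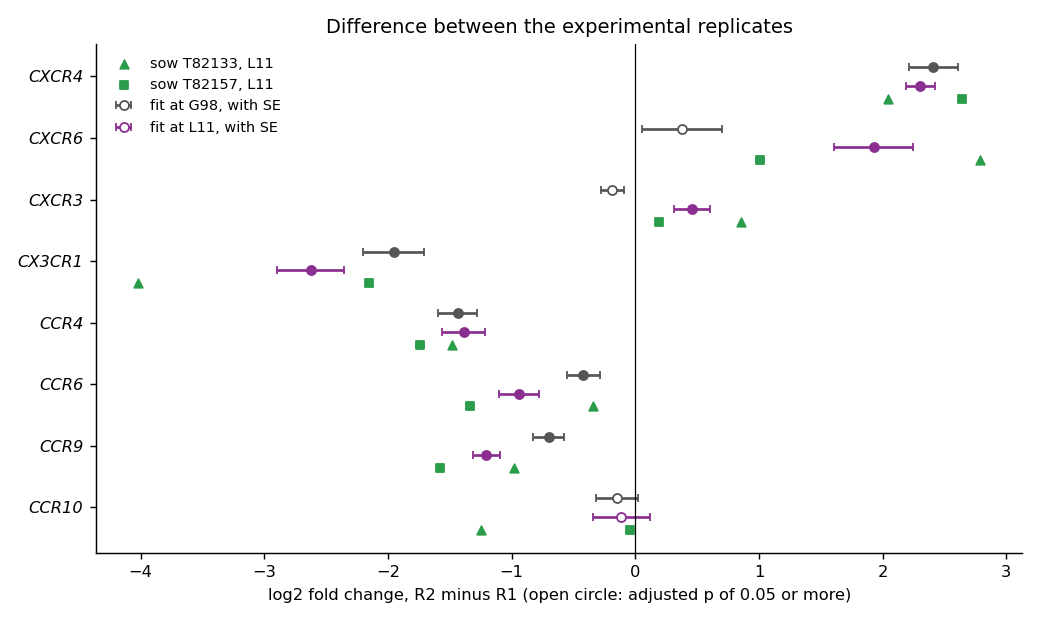
Log2 difference of R2 minus R1 for each receptor (x axis) with its SE, at G98 and at L11, from 28 libraries each; filled circles have an adjusted p under 0.05, and the triangle and square give the sows T82133 and T82157, sampled at L11 in both runs. CXCR4 lies at 2.41 and 2.31 and CX3CR1 at -1.95 and -2.62, with both sows on the same side of 0.

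Beside the counts of the next lists, 40.7% of all genes differed between the runs at G98 and 43.3% at L11. Among the 9 other chemokine receptors that were tested, 1 was higher and 4 were lower in R2 at G98, and 2 were higher and 2 lower at L11 (median log2 difference -0.12 and -0.07). Of 26 genes of receptor signalling 11 were higher and 4 lower at G98, and 9 were higher and 5 lower at L11 (median 0.06 at each stage). RGS1, which shortens G protein signals, was higher in R2 by a log2 difference of 2.35 at G98 and 2.75 at L11, and PIK3CG, the kinase downstream of these receptors, was lower by -0.66 and -0.97. Of 14 homing and adhesion genes 1 was higher and 5 lower at G98, and 3 were higher and 3 lower at L11 (median -0.05 at each stage). GPR183, the oxysterol receptor that positions B and T cells, was higher by 1.16 and 1.92, and S1PR4 was lower by -1.17 and -1.10. Of 9 chemokine ligands tested, out of 21 listed, 3 were higher and 2 lower at G98, and 3 were higher and 1 lower at L11 (median 0.15 and 0.48). CCL4 was higher by 2.33 and 1.71.

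Genes of the marker lists also differed between the runs, against a background of 40.7% of all genes at G98 and 43.3% at L11. All 8 tested erythroid genes were lower in R2 at G98, where their summed level ran from 852 to 122800 CPM in R1 and from 81.0 to 8421 CPM in R2, and none of 6 passed the test at L11. The summed T cell markers had medians of 2993 and 3111 CPM in R1 and R2 at G98 and of 2915 and 2895 CPM at L11, and 3 were higher and 3 lower of 11 at G98 and 2 higher and 3 lower at L11. The summed monocyte markers had medians of 1821 and 1710 CPM at G98 and of 1835 and 2157 CPM at L11, with 1 higher and 3 lower of 9 at G98 and 3 higher and 1 lower at L11. The summed cytotoxic and natural killer cell markers had medians of 1586 and 1670 CPM at G98 and of 1921 and 1958 CPM at L11. Of 7 B cell genes 3 were higher and 0 lower in R2 at each stage, with summed medians of 781 and 1019 CPM in R1 and R2 at G98 and of 809.7 and 967 CPM at L11. Of 8 plasma cell genes 0 were higher and 3 lower at G98 and 5 were higher and 1 lower at L11, with summed medians of 421 and 306 CPM and of 461 and 468 CPM. The part of cell composition in the receptor differences was not tested.

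From gestation to lactation, CCR6, CCR4 and CCR9 fell and, in CPM, CXCR4 rose within sows of each run. CXCR6 was called higher over all pairs, but its rise was seen in R2, where 11 of 12 pairs were higher at L11. In R1 6 of 14 were, with a median ratio of 0.92, and CXCR6 did not pass the filter in R1 alone. Over 26 pairs, 5 of the 8 receptors were called, CXCR6 through its rise in R2, beside 56.6% of all genes tested. Of these, 2 were higher at L11 (28.4% of all genes) and 3 lower (28.2%). The median log2 change of the 8 was -0.10, against 0.0037 over all genes.

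CCR6 changed most steadily. It ran from 3.29 to 12.6 CPM at G98 (median 6.29, n = 26) and from 1.18 to 8.59 CPM at L11 (median 3.61, n = 26). It was lower at L11 in all 26 pairs, as 2.29% of all genes tested were, although the ranges of the stages overlapped. The level at L11 was 0.543 times that at G98 (log2 -0.88, SE 0.09, adjusted p = 1.54e-09).

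CCR4 had medians of 11.2 CPM at G98 and 7.45 CPM at L11 and was lower at L11 in 23 of 26 pairs (log2 -0.65, SE 0.10, adjusted p = 1.59e-06). CCR9 had medians of 15.4 and 11.4 CPM and was lower in 21 of 26 pairs (log2 -0.55, SE 0.09, adjusted p = 1.35e-05). In each of these receptors the ranges of the stages overlapped.

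CXCR4 was higher at L11 in 23 of 26 pairs (1.48-fold, log2 0.57, SE 0.08, adjusted p = 1.66e-06). Its level depended so much on the run that the change shows within runs: the median went from 64.5 to 114 CPM in R1 and from 399 to 519 CPM in R2. On the TPM scale the mean of CXCR4 in the R1 pairs was 25.3 at G98 and 38.2 at L11. In the R2 pairs it was 143.5 ± 29.8 and 152.5 ± 34.6 TPM (SD, n = 12), so the rise in R2 was small against its spread there. CXCR6 had medians of 0.405 CPM at G98 and 0.677 CPM at L11 and was higher in 17 of 26 pairs (log2 0.94, SE 0.26, adjusted p = 0.00296), 6 of them from R1 and 11 from R2. CXCR3 (log2 -0.15, adjusted p = 0.146), CX3CR1 (-0.05, adjusted p = 0.799) and CCR10 (0.08, adjusted p = 0.63) did not pass the test.

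The change between stages differed between the runs for 4 of the 8 receptors, beside 20.9% of all genes tested. CXCR3 was lower at L11 in all 14 pairs of R1, with means of 20.9 ± 4.76 CPM at G98 and 15.8 ± 5.73 CPM at L11 (log2 -0.45, SE 0.09, adjusted p = 0.000488). In R2 it was higher at L11 in 9 of 12 pairs, with means of 18.2 ± 4.38 and 20.5 ± 3.92 CPM (log2 0.20, SE 0.09, adjusted p = 0.09). The difference between the runs was 0.63 (SE 0.13, adjusted p = 0.00117). On the TPM scale the mean of CXCR3 in the R1 pairs was 12.5 ± 3.71 at G98 and 10.7 ± 3.76 at L11. In the R2 pairs it was 12.3 ± 2.23 and 11.0 ± 2.25 TPM. The mean was thus lower at L11 in both runs, and the opposite directions of the CPM were not seen in TPM. The difference between the runs was not tested on that scale.

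In the 14 pairs of R1, CXCR6 had means of 0.390 ± 0.236 CPM at G98 and 0.399 ± 0.235 CPM at L11, with 6 pairs higher at L11, and did not pass the filter for a test in R1 alone. In R2 the means were 0.482 ± 0.288 and 1.65 ± 1.27 CPM, with 11 of 12 pairs higher at L11 (log2 1.74, SE 0.32, adjusted p = 0.000422). The difference between the runs was 1.68 (SE 0.43, adjusted p = 0.00598). CCR6 fell in each run, by a log2 change of -0.68 in R1 and -1.14 in R2, and the difference was -0.47 (SE 0.15, adjusted p = 0.0237). CCR9 fell by -0.31 in R1 and -0.84 in R2, with a difference of -0.55 (SE 0.16, adjusted p = 0.0138).

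For CCR4 the changes were -0.70 in R1 and -0.57 in R2, and for CXCR4 0.65 and 0.48, each past the threshold in each run (adjusted p of the difference 0.737 and 0.437). CX3CR1 had a log2 change of 0.22 in R1 and -0.47 in R2, neither past the threshold (adjusted p of the difference 0.102). Within R1, 5 of 7 tested receptors changed, beside 43% of all genes, and within R2 5 of 8, beside 48.3%. CXCR3 was among the 5 in R1 and CXCR6 among the 5 in R2, and CCR4, CCR6, CCR9 and CXCR4 were called in each run.

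**Figure D3:**
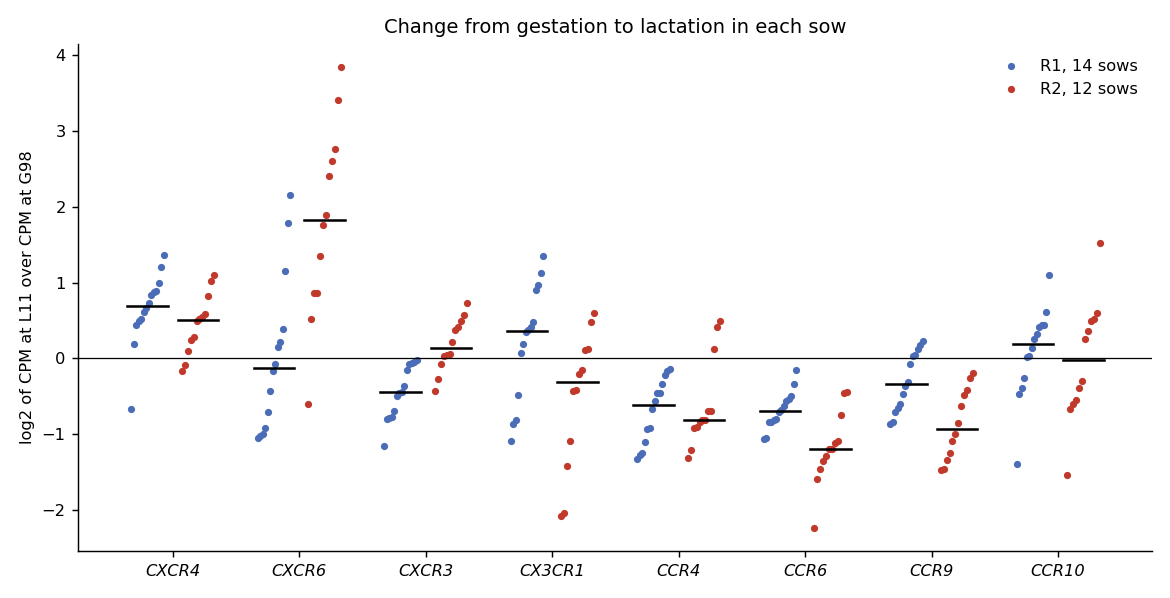
Log2 ratio of CPM at L11 over CPM at G98 (y axis) for each sow, by receptor and replicate (14 sows in R1, 12 in R2); lines are medians. CCR6 is below 0 in all 26 sows, CXCR3 is below 0 in all 14 sows of R1 and above 0 in 9 of 12 of R2, and CXCR6 is above 0 in 6 of 14 and 11 of 12.

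The counts of the next lists stand beside 28.4% of all genes that rose and 28.2% that fell between the stages. Of 9 other chemokine receptors 4 rose and 2 fell (median log2 change 0.18). Among them were CCR1, a monocyte receptor of inflammatory chemokines, which rose by 0.50, and CXCR5, the receptor that leads B cells to follicles, which fell by 0.42. Of 21 listed ligands 9 were tested, of which 6 rose and none fell (median 0.45), with XCL1 at 0.68, CCL21 at 0.66 and CCL4 at 0.84. Of 26 signalling genes 7 rose and 9 fell (median -0.0099), with RGS2 at 1.04 and RGS1 at 1.18, and PREX1, which couples these receptors to Rac, at -0.36. Of 14 homing and adhesion genes 3 rose and 7 fell (median -0.07), among them S1PR4 at -1.10 and the integrin ITGA4 at -0.33.

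Genes of the marker lists changed with the stage in shares on either side of the 56.6% of all genes. Rises and falls were counted for 1 and 6 of 11 T cell genes, 0 and 3 of 6 gamma delta T cell genes, 7 and 1 of 12 cytotoxic and natural killer cell gene IDs and 1 and 2 of 7 regulatory T cell genes. They were 5 and 0 of 9 monocyte genes, 3 and 1 of 5 dendritic cell genes, 0 and 1 of 7 B cell genes and 7 and 0 of 8 plasma cell genes. They were 2 and 0 of 2 granulocyte genes, 0 and 2 of 4 platelet genes and 0 and 8 of 8 erythroid genes. The T cell markers summed to 2585 to 3680 CPM at G98 and 1974 to 3462 CPM at L11, and the monocyte markers to 930.2 to 2564 CPM and 1477 to 8857 CPM. The library at 8857 CPM came from sow T83888 in R2 and also held the highest CXCR6 level, 5.22 CPM; without that sow the change of CXCR6 was 0.83 (adjusted p = 0.00684). The part of the other markers in the receptor changes was not tested.

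Between the parity groups 1 receptor differed. CXCR3 was higher in HP than in LP sows at G98, and it was the 1 receptor of 8 to pass the test, beside 1.47% of all genes tested (0.562% higher). It ran from 10.5 to 22.8 CPM in 15 LP libraries (median 16.2) and from 15.5 to 29.5 CPM in 13 HP libraries (median 23.8), with overlapping ranges. The difference was 1.35-fold (log2 0.43, SE 0.10, adjusted p = 0.0305). In R1 all 7 HP libraries lay above the LP mean of that run and 5 above every LP library; in R2 5 of 6 and 3 of 6 did.

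Within R1 the difference in CXCR3 was 0.48 (adjusted p = 0.0363), and within R2 0.36 (adjusted p = 0.164). With housing, parity and dominance fitted together it was 0.35 and was not called (adjusted p = 0.508), and it also missed the threshold without sow T82166, T83859 or T83888 (adjusted p = 0.0611, 0.0508 and 0.0508). Parity and rank were entangled: of 13 HP libraries at G98 8 were dominant and 1 subordinate, and of 15 LP libraries 1 was dominant and 7 subordinate. Within LP, CXCR3 averaged 15.6 CPM in 7 subordinate, 16.7 CPM in 7 intermediate and 22.8 CPM in the 1 dominant library. Within HP it averaged 22.6 CPM in 8 dominant, 22.7 CPM in 4 intermediate and 21.2 CPM in the 1 subordinate library.

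At L11 no receptor differed by parity, beside 0.179% of all genes called, and none had an unadjusted p under 0.05 in edgeR or was called by DESeq2. The HP libraries at L11 include both libraries of T82133 and T82157, which the fits within L11 took as separate animals. Without their R2 libraries no receptor was called for parity, housing or rank. Nor was any called for parity within a run, where CXCR4 averaged 124.6 ± 11.5 CPM in LP and 91.4 ± 17.0 CPM in HP in R1, and 508 ± 132 and 545.5 ± 96.6 CPM in R2. CXCR3 had a median of 15.5 CPM in 14 LP and 20.01 CPM in 14 HP libraries (log2 0.26, SE 0.17, adjusted p = 0.818). In R1 2 of 7 and in R2 1 of 7 HP libraries were above every LP library of their run. The difference of the stage change between HP and LP was -0.24 (SE 0.17, adjusted p = 1), so a parity difference at one stage and not at the other was not shown to differ between the stages.

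Among the marker lists the gamma delta T cell genes moved with parity at G98, where 1.47% of all genes were called. Of 6 genes 3 were lower in HP, SOX13 by -1.21, BLK by -0.82 and GATA3 by -0.49. Their summed level ran from 348 to 618.7 CPM in LP and from 199.9 to 452 CPM in HP, with no member at 0. Summed monocyte markers had medians of 1517 CPM in LP and 2016 CPM in HP (1 of 9 genes called, list median 0.33), and summed B cell markers 996.5 and 759.8 CPM (0 of 7 called, list median -0.28). Single genes of the lists were higher in HP, CD4 by 0.31, TIGIT by 0.46, CD163 by 0.65, BATF3 by 0.64 and the receptor kinase GRK3 by 0.38, and none of the other chemokine receptors, ligands or homing genes was called. The part of these cells in the level of CXCR3 was not tested. The other 7 receptors had differences from -0.38 (CCR9, SE 0.18, adjusted p = 0.298) to 0.24 (CX3CR1, SE 0.43, adjusted p = 0.83). These fits pool the runs, and the runs were not alike. In LP and HP, CCR9 averaged 26.2 ± 3.3 and 17.9 ± 6.35 CPM in R1 and 14.3 ± 3.67 and 12.6 ± 2.18 CPM in R2. CCR6 averaged 9.03 ± 1.93 and 6.11 ± 0.843 CPM in R1 and 5.41 ± 1.4 and 5.87 ± 1.48 CPM in R2. Neither was called within a run or with the replicate as a block.

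**Figure D4:**
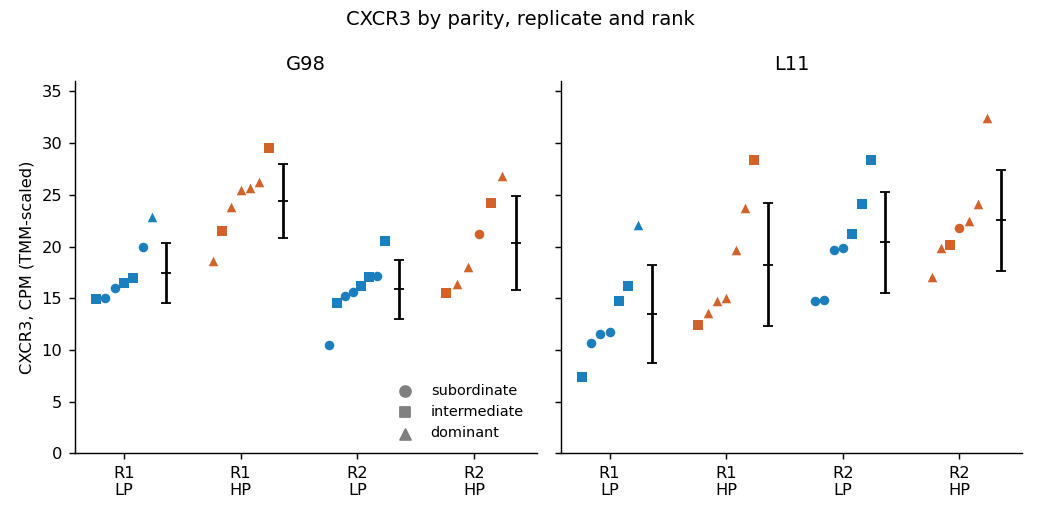
CXCR3 in TMM-scaled CPM (y axis, from 0) by replicate and parity at G98 and L11; each point is a library, its shape gives the rank, and bars are mean ± SD. HP libraries have a median of 23.8 CPM at G98 against 16.2 CPM in LP, and 8 of 9 dominant libraries at G98 are HP.

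No receptor differed between enriched and conventional housing in edgeR, beside 0.00815% of all genes called at G98 and 0% at L11. None of the 8 had an unadjusted p under 0.05 at either stage, and DESeq2 called none. The log2 differences, E minus C, lay between -0.17 (CCR6) and 0.21 (CCR4) at G98. At L11 they lay between -0.59 (CX3CR1, SE 0.52) and 0.07 (CXCR3, SE 0.17). CXCR4, for example, had medians of 214 CPM in C and 180.1 CPM in E at G98 and 268 and 269.9 CPM at L11. These medians pool the runs, between which CXCR4 did not overlap, and so say little on housing. The fitted log2 differences of CXCR4 were -0.04 (SE 0.47) at G98 and -0.19 (SE 0.43) at L11.

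Rank gave no call either, beside 0% of all genes called by edgeR at each stage, and DESeq2 called none of the 8 receptors. At G98 CXCR3 was the 1 receptor with an unadjusted p under 0.05: 8 subordinate libraries ran from 10.5 to 21.2 CPM (median 15.8) and 9 dominant ones from 16.4 to 26.9 CPM (median 23.8), and the ranges overlapped (log2 0.46, SE 0.15, adjusted p = 0.164). At L11 none had one, and the medians of CXCR3 were 14.8 and 19.9 CPM (log2 0.39, SE 0.23, adjusted p = 0.62). CX3CR1 had medians of 6.97 CPM in subordinate and 14.4 CPM in dominant sows at G98 and 2.83 and 10.1 CPM at L11, with log2 differences of 0.84 (SE 0.55) and 0.86 (SE 0.65) that did not pass the test (adjusted p = 0.5 and 0.757). These medians pool the runs, between which CX3CR1 did not overlap and the ranks were uneven: 3 of 8 subordinate and 6 of 9 dominant libraries at G98 came from R1, and 3 of 8 and 6 of 11 at L11. With the replicate as a block the difference was 0.46 (SE 0.32, adjusted p = 0.55) at G98 and 0.90 (SE 0.33, adjusted p = 0.226) at L11. Within R1 it was 0.30 at G98 and 0.26 at L11, and within R2 0.88 and 1.46, with none called. The stage change did not pass the test for a difference by housing, parity or rank in any of the 8 receptors (0% of all genes called in each), and none had an unadjusted p under 0.05.

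**Figure D5:**
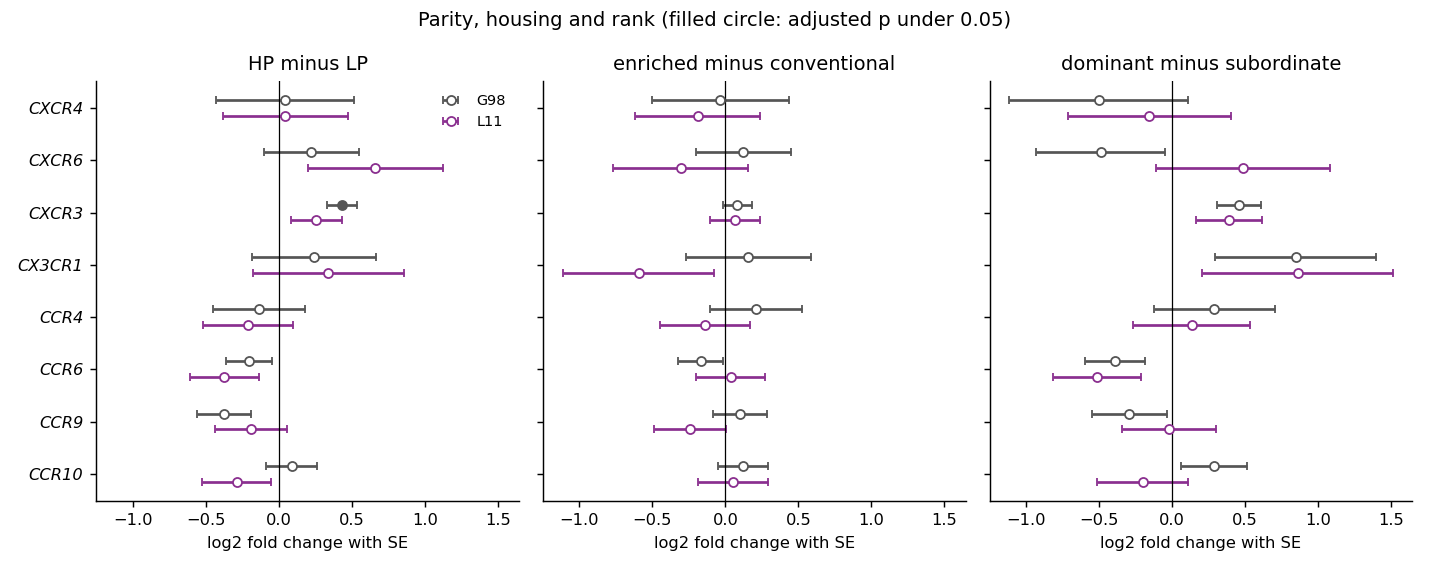
Log2 difference with SE (x axis) of each receptor between HP and LP, enriched and conventional housing, and dominant and subordinate sows, at G98 and L11 (28 libraries each); filled circles have an adjusted p under 0.05. The 1 filled circle is CXCR3 for parity at G98, at 0.43.

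With the mean of each stage and replicate removed, the receptors varied largely apart from each other across the 56 libraries. Their 28 pairwise rank correlations ran from -0.401 (CCR6 and CXCR3) to 0.334 (CCR6 and CCR9), a description over libraries that share sows, run and depth. Genes most like a receptor on the same scale were named from 9331 or 9332 genes. CCR6 ran with CLEC17A (rho 0.77), FCRL3 (0.718) and LY9 (0.702), and CXCR3 with CDR2 (0.768), RBM20 (0.723) and CST7 (0.712). CX3CR1 ran with CD244 (0.663), DYNC1I2 (0.632) and RFC1 (0.63), and CXCR4 with ZRANB1 (0.647), EIF4A2 (0.646) and ZNF189 (0.641).

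CCR10 ran with MCM10 (0.604), TNFRSF17 (0.544) and JCHAIN (0.54), of which the last 2 are on the plasma cell list. CCR4 ran with DOCK8 (0.595), GCLM (0.565) and CISH (0.554), and CCR9 with ARMCX5 (0.557), ZNF397 (0.555) and WDHD1 (0.536). The highest values for CXCR6 were lower, SLC25A44 at 0.431, TGM2 at 0.419 and ADRM1 at 0.414, in the receptor with the fewest counts.

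Whether a sow kept its place among the sows from G98 to L11 was examined within each run, in 16 relations. In R1 (14 sows) CXCR3 gave Pearson r = 0.725 (permutation p = 0.00325, adjusted p = 0.026) and Spearman rho = 0.741 (permutation p = 0.00329, adjusted p = 0.0526), and r = 0.714 without the 2 sows farthest from the median. In R1 CCR6 gave r = 0.769 (permutation p = 0.00122, adjusted p = 0.0195) and rho = 0.626 (permutation p = 0.0193, adjusted p = 0.154), and r = 0.707 without 2 sows. The R1 means of both receptors lay apart by parity at G98 and L11. CXCR3 averaged 17.5 and 13.5 CPM in LP and 24.4 and 18.2 CPM in HP, and CCR6 9.0 and 5.3 CPM in LP and 6.1 and 4.1 CPM in HP. These correlations cannot tell a kept place of single sows from a parity difference. In R2 (12 sows) CXCR3 gave r = 0.401 (permutation p = 0.194, adjusted p = 0.408) and rho = 0.455 (permutation p = 0.142, adjusted p = 0.324). In R2 CCR6 gave r = 0.501 (permutation p = 0.0966, adjusted p = 0.258) and rho = 0.51 (permutation p = 0.0939, adjusted p = 0.25). No relation had an adjusted p under 0.05 by rank, and the other 12 had adjusted p above 0.05 by either measure.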

How the data were processed

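RNA of peripheral blood mononuclear cells went into stranded mRNA libraries (500 ng, 12 amplification cycles, per the labels' protocols). Per the file headers, the authors deposited for each gene an estimated count, a TPM value and a length. The submitters' processing notes list the build Sscrofa11.1 and the tools R 4.1.2 and DESeq2; the sources used here do not give the aligner, quantifier, annotation or model. Estimated counts were rounded (4.61% were not whole) and CPM were TMM-scaled; TPM served to compare genes and entered no test. A gene name table matched 14692 of 24358 IDs (60.3%); GZMA has 2 IDs.

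Tests used edgeR 4.0.16 in R 4.3.3 (filterByExpr, glmQLFit, glmQLFTest, 2-sided) with Benjamini-Hochberg adjustment over all genes and a threshold of 0.05. For stage, each sow in each run had its own term; within a stage, housing was a covariate of parity and rank, parity of housing, and both of replicate. Rank was dominant against subordinate with intermediate sows in the fit. Correlations used log2 CPM (prior count 2) and 100000 permutations. All 364 pairs of libraries within a stage and replicate differed by more than sampling noise (chi-square per degree of freedom 18.5 to 561). In simulated counts with a fixed spread and no differences between runs or sows, the fits recovered the largest of the known changes. This checks the code and not the power of the fits in these data.

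The receptors, the lists and the tests were chosen with earlier results of these data known. Named were all receptors, per list up to 4 called genes (3 for markers) with the smallest p, and the 3 genes of mean log2 CPM 1 or more most like each receptor. The lists were other chemokine receptors, ligands, receptor signalling, homing and adhesion, and 11 marker lists. Alternatives were no filter, a stricter filter (1 CPM in 50% of libraries), DESeq2 1.42.0 and its size factors, other covariates, the replicate as a block, single runs, and fits without repeat libraries, single sows or libraries that stood apart. The design text names R1 and R2 as runs of the experiment, so the number was read as the run of a library and not as a pairing of single libraries. Libraries of the same run deviated together (mean r 0.196 to 0.281 within a run, -0.279 to -0.195 between runs). The values between runs nearly mirror those within a run and are no separate result.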

Additional observations from a re-analysis of the deposited data

Results flagged for a closer look

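Libraries that stood apart from the rest of their group were looked for in 96 groups of 4 to 10 libraries, and 7 did; chance alone would set apart about 1 in 20 groups. At G98 in R1, sow T83410 had CCR9 at 31.1 CPM, with the next HP library at 19.8, and sow T82133 had CXCR4 at 196.9 CPM, with the next HP library at 65.2. At G98 in R2, sow T704 had CX3CR1 at 8.95 CPM, with the next LP library at 5.003. Among the subordinate sows at G98, T93220, an R1 sow, had CX3CR1 at 21.1 CPM, with the next at 9.36. At L11, sow T93204 had CXCR6 at 0.929 CPM (R1, LP, next 0.463), T93013 had CXCR4 at 777 CPM (R2, LP, next 526) and T83888 had CXCR6 at 5.22 CPM (R2, HP, next 2.51). The T83888 library also held the highest CD163 level at L11, 1937 CPM. Without T82133 the difference of CXCR4 between the runs at G98 was 2.61 in place of 2.41.

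The change from G98 to L11 differed between R1 and R2 in 4 receptors, tested as the interaction of stage and replicate over 52 libraries. The log2 difference, R2 minus R1, was -0.47 for CCR6, -0.55 for CCR9, 0.63 for CXCR3 and 1.68 for CXCR6. All 4 were called as well without the libraries of T82133 and without those of T83888.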

How the results depend on the processing

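The stage call of CCR4, CCR6, CCR9, CXCR4 and CXCR6 was made with no filter, with DESeq2 or its size factors, and without any 1 of the 26 sows (5 to 5). It was also made with housing, parity and replicate as covariates in place of a term per sow (5 of 8). The stricter filter left out CXCR6. The parity call of CXCR3 at G98 was the least steady: the count of 1 became 0 with all 3 factors, 0 with all 3 factors and the replicate block, 0 within R2, and 0 to 1 without single sows, the cause of which was not tested. With the replicate as a block it stayed at 1 (log2 0.42, adjusted p = 0.0208), and the blocked fits changed no other call. The count for parity at L11 was 0 to 0 without single sows. The counts for replicate, housing, rank and the interactions, the order by TPM and the count of relations between stages were the same or within 1.5 times under every alternative run. Of the single receptor results outside the sow by sow fits 796 kept their side of the threshold, 3 were weaker, 1 was stronger (CXCR3 for stage within R1) and 0 called values reversed; of 1440 values with the sow by sow fits, 79, none past the threshold, changed sign. Depth limits CXCR6 and CCR10, at 2 to 111 and 5 to 54 counts per library. Parity is entangled with rank, and both stage and run with the library number series.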

Other observations

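Of the other chemokine receptors, ACKR3 and CCR3 differed between the runs at each stage. ACKR3, an atypical receptor that binds CXCL12 and so shares its ligand with CXCR4, averaged 2.17 CPM in R1 and 6.62 CPM in R2 at G98 (log2 1.59, SE 0.22, adjusted p = 1.71e-06), and 2.68 and 25.6 CPM at L11 (log2 3.17, SE 0.32, adjusted p = 3.97e-09). Its rise between the stages was larger in R2 by 1.44 (SE 0.26, adjusted p = 0.000247). CCR3, the eotaxin receptor of eosinophils and basophils, averaged 289.7 CPM in R1 and 112 CPM in R2 at G98 and 263 and 99.6 CPM at L11 (log2 -1.37 at each stage, adjusted p = 5.57e-07 and 7.98e-08).

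All 8 plasma cell genes were called for a change from G98 to L11 that was higher in R2 than in R1, as 1363 of 12349 genes tested were. Their median difference was 0.61, against -0.0048 over all genes, with XBP1 at 0.64, SDC1 at 0.88 and IRF4 at 0.52. CCR10, which ran with 2 genes of that list across libraries, had a difference of -0.04 (adjusted p = 0.943).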
